A study of Mus musculus with 12 samples.

Results

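The genes described here are 42 members of the p53 pathway of the mouse, chosen by symbol as regulators, relatives and known transcriptional targets of p53. They were followed in CT26 cells, a transplantable colon carcinoma line of BALB/c origin, on 12 expression arrays in 4 groups of 3. Of the 42 genes, 39 were measured, out of 17097 genes tested in all, each by the probe set that named this gene alone and had the highest mean signal. Trp53 itself, Gdf15 and Sdc1 were not analysed here. STS cells were kept for 48 h in the short-term starvation medium, with 0.5 g/L glucose and 1% FBS and no drug. OXP cells were kept for the same time in control medium, with 1.0 g/L glucose and 10% FBS, and received oxaliplatin, a platinum drug that crosslinks DNA, 24 h after the start. STS+OXP cells received oxaliplatin at the same time point in the starvation medium, and CTR cells were kept in control medium without the drug. The array labels give the oxaliplatin concentration as 10 µM, while other descriptions of the study name other ones. Glucose and serum were lowered together and the labels name another base medium for serum-restricted cultures, so their parts in any difference cannot be told apart. No source says if a group's 3 arrays stand for separate cultures, and the p-values therefore measure only the spread between arrays, which may be technical.

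p53 is a transcription factor that is held at a low level by the ubiquitin ligase Mdm2 and its partner Mdm4. Damage to DNA activates the kinases Atm, Atr, Chek1 and Chek2, which free p53 from this control, and p53 then raises genes for cell cycle arrest, DNA repair, antioxidant metabolism and cell death. Several of its targets, Mdm2, Ccng1, Ppm1d and Trp53inp1 among them, act back on p53. The binding site of p53 is made of a pair of half-sites, each of 3 purines, a C, 2 bases that are A or T, a G and 3 pyrimidines.

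Values are log2 signals as deposited, on which a difference of 1 is a 2-fold change. The highest nonspecific control set read between 3.21 and 3.72 over the 12 arrays, and a group mean at or under the highest such level on the arrays of that group was taken as background. Trp63, Trp73, Perp, Zfp365 and Steap3 were at background in all 4 groups. Of 9 colon epithelium markers 5 were at background in every group, while Krt20 averaged 6.72 in STS, 7.07 in OXP, 6.85 in STS+OXP and 6.77 in CTR. Of 12 measured markers of macrophages, lymphocytes, endothelium and red cells 6 were at background throughout. One of the others, the macrophage marker Cd68, averaged 2.96 in STS, 4.41 in OXP, 3.2 in STS+OXP and 2.94 in CTR, and it was called in OXP against CTR (adjusted p = 0.00959, limma). Its OXP arrays read 5.22, 3.07 and 4.92, the second of these at background. The remaining macrophage markers did not rise with it. Ptprc, Csf1r and Lyz2 were at background in every group, and Adgre1 averaged 3.65 in STS, 3.71 in OXP, 3.73 in STS+OXP and 3.71 in CTR. The summed log2 signal of the 12 markers ranged from 40.1 to 41.2 in STS, 40.8 to 44 in OXP, 41.1 to 41.5 in STS+OXP and 40.9 to 42.5 in CTR cells, and its part in the results was not tested. OXP replicate 1 stood apart in the control probe sets for transcript integrity, with a 3′ minus 5′ Gapdh difference of 3.85 where the remaining 11 arrays had −0.117 to 0.284. OXP replicates 2 and 3 lay nearer to the STS+OXP arrays than to the other OXP arrays, with mean root mean square distances over all genes of 0.173 and 0.242 to STS+OXP, and of 0.298 and 0.274 to OXP, where OXP replicate 1 is among the arrays compared. In cultures of this kind a change in the signal of a gene cannot be told apart from a change in the share of cells that express it.

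Most of the measured pathway genes were higher after oxaliplatin, in both media. In OXP against CTR cells 28 of 39 were higher and 1 was lower, where 31.4% of all genes tested were called in either direction, 17.5% higher and 13.9% lower. In STS+OXP against CTR cells 27 were higher and 2 lower, where 30.6% of all genes were called, 16.4% higher and 14.2% lower. The same 26 genes rose in both groups, by 0.31 to 4.18 on the log2 scale in OXP cells and by 0.3 to 4.2 in STS+OXP cells, and 16 of them rose by more than 1 in both. The median log2 fold change over the 39 genes was 0.962 in OXP and 0.975 in STS+OXP cells, beside −0.0137 and 0.00045 over all genes. Calls are more frequent at higher signal. Among genes above the median signal, tested alone, 57.8% were called in OXP and 57.4% in STS+OXP, in either direction. The feedback genes Trp53inp1 and Mdm2, the death receptor Eda2r, the phosphatase Ptp4a3 and the adenylate kinase Ak1 had the largest differences in OXP cells. Both groups were set against the same 3 CTR arrays, so the 2 sets of differences are not independent. A call here is an adjusted p under 0.05 in limma, two-sided, with Benjamini-Hochberg adjustment over all genes tested. The plot of differences by role shows how the genes of each role divided.

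**Figure D1:**
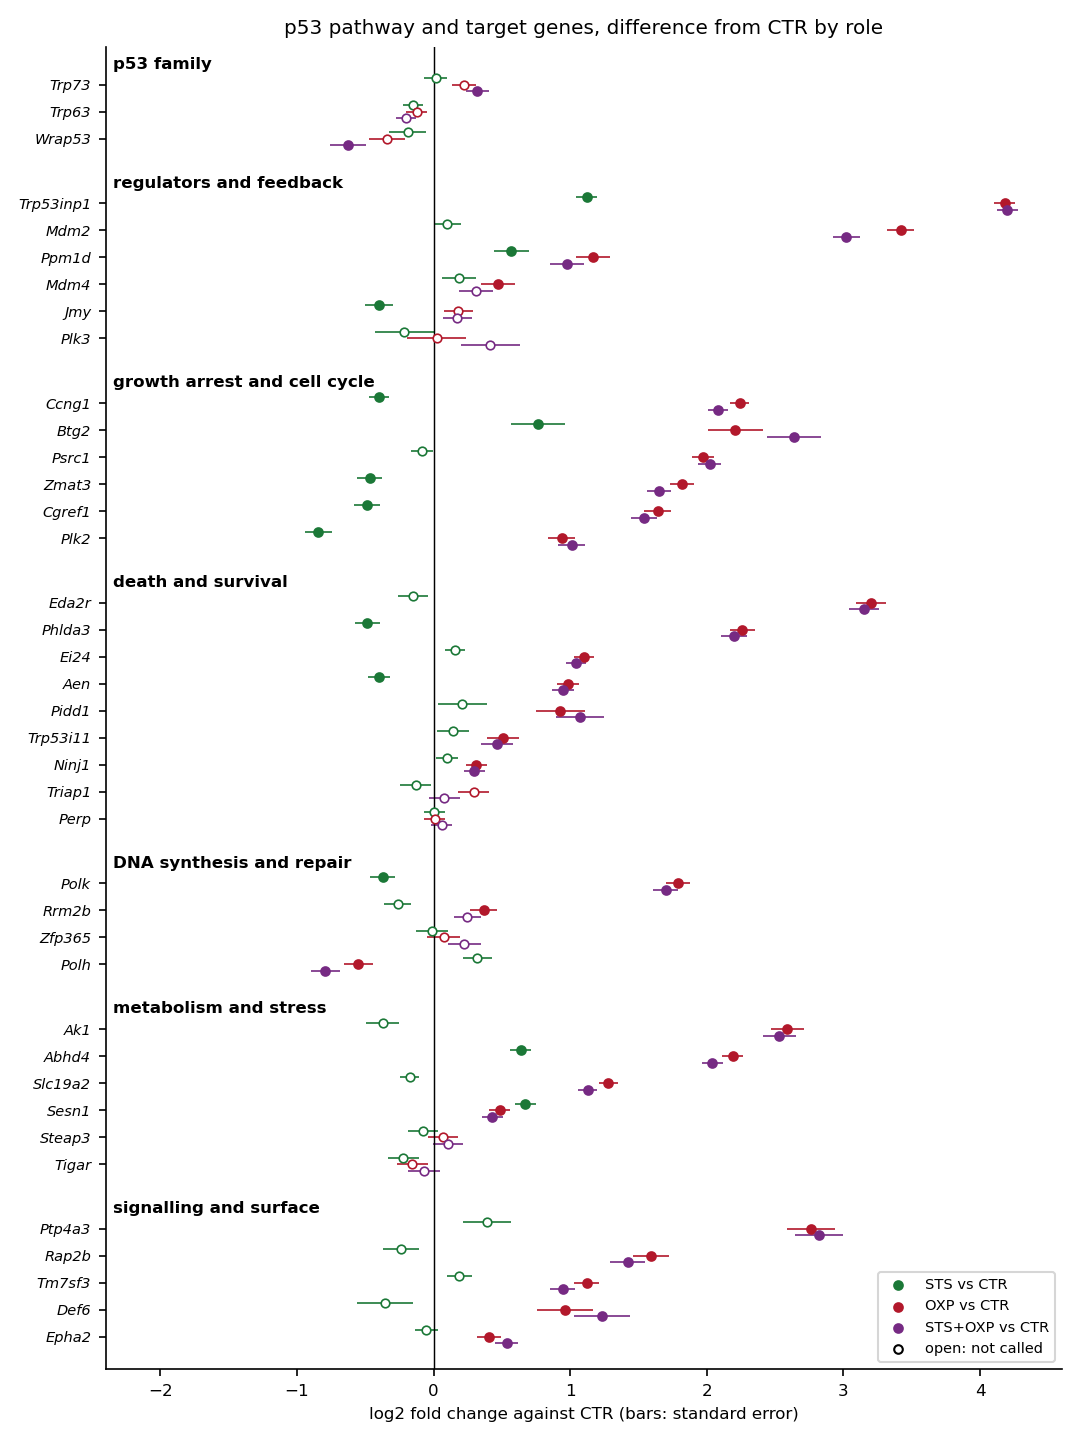
The log2 fold change against CTR (horizontal axis, bars give the standard error) of each of the 39 measured genes, grouped by role and ordered by the OXP difference, for STS (green), OXP (red) and STS+OXP (purple). Filled points passed the adjusted p threshold. The red and purple points of a gene lie close together, and 26 genes are filled and right of 0 in both, while the green points range from −0.84 (Plk2) to 1.12 (Trp53inp1).

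Promoter sequence is shown for the genes that rose in both groups and hold a p53 half-site with no mismatch near their start, so that the letters behind each match can be read. Of the 26 genes, 22 had a RefSeq promoter window of 300 bases, with 250 before and 50 after an annotated start (build GRCm38.p6), and 9 of the 22 (40.9%) held such a half-site on either strand. A gene with several annotated starts was counted if any of its windows held one. The share was 31.2% of the 32 measured pathway genes with a window and 8.65% of the 13605 genes tested that have one. In the following lines, taken from RefSeq and written 5′ to 3′ on the strand of the gene, the half-site is in capitals with up to 10 bases on either side.
Mdm2: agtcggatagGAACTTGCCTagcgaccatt
Ppm1d: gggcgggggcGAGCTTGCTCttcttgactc
Ccng1: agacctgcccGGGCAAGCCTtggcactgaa
Aen: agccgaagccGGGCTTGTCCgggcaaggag
Ei24: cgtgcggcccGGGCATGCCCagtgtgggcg
Polk: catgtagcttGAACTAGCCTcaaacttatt
Sesn1: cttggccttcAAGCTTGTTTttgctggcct
Abhd4: cgacccggcaGGGCTTGTTTactatggctg
Rap2b: gcgacgtactGGGCATGCTCggctggg
These stretches lie at chr10:117710925-117710954 (− strand, Mdm2), chr11:85311112-85311141 (+ strand, Ppm1d), chr11:40755452-40755481 (− strand, Ccng1), chr7:78895927-78895956 (+ strand, Aen), chr9:36797325-36797354 (− strand, Ei24), chr13:96519399-96519428 (− strand, Polk), chr10:41887256-41887285 (+ strand, Sesn1), chr14:54259274-54259303 (+ strand, Abhd4) and chr3:61364530-61364556 (+ strand, Rap2b). Counted from the annotated start of the window shown, the first base of the half-site lay at −231 in Polk, −186 in Mdm2, −185 in Ccng1, −173 in Sesn1, −132 in Ppm1d and −10 in Ei24, and after the start in Aen, Abhd4 and Rap2b. For Sesn1, Polk and Abhd4 the window shown belongs to an alternative start inside the gene, and their windows at the outermost start held no half-site. A full site was taken as 2 half-sites with at most 13 bases between them and at most 2 mismatches, none at the C and G. It was found in any window of 9.09% of the 22 genes and of 4.54% of the 13605 genes. Over the 32 measured pathway genes with a window the share was 12.5%, so the full site was not more common in the genes that rose. In Ccng1 such a full site had 1 mismatch and no bases between its half-sites. It is in capitals in the Ccng1 window at chr11:40755237-40755536 (− strand).
Ccng1: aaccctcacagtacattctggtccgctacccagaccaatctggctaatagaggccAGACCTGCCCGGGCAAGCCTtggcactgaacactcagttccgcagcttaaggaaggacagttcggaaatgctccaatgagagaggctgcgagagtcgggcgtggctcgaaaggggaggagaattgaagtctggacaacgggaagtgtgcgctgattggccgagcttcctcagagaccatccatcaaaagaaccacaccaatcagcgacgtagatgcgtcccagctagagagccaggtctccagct
These matches describe the letters of the windows and were not tested as binding sites, and sites outside the windows, such as those known in introns of p53 targets, were not searched.

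Among the regulators of p53, the feedback genes rose most. Trp53inp1, whose product promotes the activity of p53 under stress, had log2 signals of 7.37, 7.41 and 7.54 in STS, 10.52, 10.51 and 10.48 in OXP, 10.56, 10.46 and 10.53 in STS+OXP, and 6.17, 6.44 and 6.35 in CTR cells. OXP and STS+OXP overlapped, and both lay above STS, which lay above CTR. The difference from CTR was 4.18 ± 0.0788 (SE) in OXP and 4.2 ± 0.0788 in STS+OXP, 18.2-fold and 18.4-fold, with adjusted p of 1.51e-12 and 1.74e-12 (limma). The second probe set of Trp53inp1 was at background in all 4 groups. Mdm2 read 6.93, 6.81 and 6.81 in STS, 10.21, 10.04 and 10.26 in OXP, 9.9, 9.53 and 9.88 in STS+OXP, and 6.72, 6.76 and 6.77 in CTR cells. Each of its 3 OXP arrays lay above the 3 STS+OXP arrays, and STS and CTR lay far below both. The fold was 10.7 in OXP and 8.12 in STS+OXP (adjusted p = 5.66e-11 and 1.49e-10, limma). Ppm1d, a phosphatase that reverses damage signals on p53, gave 5.46, 5.57 and 5.6 in STS, 6.46, 6.05 and 5.92 in OXP, 6.05, 5.87 and 5.92 in STS+OXP, and 4.84, 5.16 and 4.92 in CTR cells. All 3 treated groups lay above CTR, with OXP and STS+OXP overlapping, and the differences from CTR were 1.17 in OXP and 0.97 in STS+OXP (adjusted p = 5.7e-06 and 3.22e-05). Mdm4, the relative of Mdm2 that masks p53, read 4.93, 5.03 and 5.01 in STS, 5.45, 5.23 and 5.17 in OXP, 5.45, 4.87 and 5.04 in STS+OXP, and 4.86, 4.85 and 4.72 in CTR cells. It passed the test in OXP only (0.47, adjusted p = 0.00907; 0.31 and 0.0789 in STS+OXP), and of its 3 other probe sets 2 were at background in all 4 groups, while the third, which was dim, gave −0.21 in OXP. Plk3, a stress-activated kinase, read 4.76 on OXP replicate 1 and 5.85 and 5.76 on the other OXP arrays, beside 5.64, 6.01 and 5.9 in STS+OXP and 5.5, 5.3 and 5.49 in CTR cells. Its OXP difference was 0.02 (adjusted p = 0.957) with all arrays and 0.37 (adjusted p = 0.0169) without OXP replicate 1.

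The 6 growth arrest and cell cycle genes all passed the test in both groups given the drug, with medians of 1.89 in OXP and 1.83 in STS+OXP. Ccng1 encodes cyclin G1, which recruits a phosphatase to Mdm2, and its promoter window holds the full site shown above. It read 8.61, 8.57 and 8.53 in STS, 11.27, 11.15 and 11.22 in OXP, 11.1, 11.0 and 11.03 in STS+OXP, and 8.87, 9.08 and 8.95 in CTR cells. No group overlapped another, and the OXP and STS+OXP differences from CTR were 2.24 and 2.08 (SE 0.0722 each, adjusted p = 1.34e-10 and 2.43e-10). Btg2, an antiproliferative factor that speeds mRNA decay, gave 6.55, 6.19 and 5.91 in STS, 7.36, 8.17 and 7.46 in OXP, 8.18, 7.85 and 8.24 in STS+OXP, and 5.33, 5.52 and 5.52 in CTR cells. OXP and STS+OXP overlapped above STS, and CTR was lowest, with differences from CTR of 2.21 in OXP and 2.64 in STS+OXP (adjusted p = 1.12e-06 and 2.04e-07). The spindle protein gene Psrc1 read 7.59, 7.54 and 7.43 in STS, 9.58, 9.59 and 9.55 in OXP, 9.62, 9.64 and 9.61 in STS+OXP, and 7.45, 7.76 and 7.6 in CTR cells. Its STS and CTR arrays overlapped, and the drug groups were higher by 1.97 and 2.02 (adjusted p = 8.43e-10 in OXP and 7.25e-10 in STS+OXP). Zmat3, an RNA-binding regulator of splicing, gave 6.24, 6.13 and 6.14 in STS, 8.43, 8.59 and 8.36 in OXP, 8.26, 8.29 and 8.31 in STS+OXP, and 6.59, 6.82 and 6.51 in CTR cells. Cgref1, a secreted calcium-binding inhibitor of growth, gave 4.55, 4.43 and 4.56 in STS, 6.83, 6.52 and 6.58 in OXP, 6.42, 6.72 and 6.48 in STS+OXP, and 5.07, 5.01 and 4.91 in CTR cells. In both genes the 3 STS arrays lay below the 3 CTR arrays and the drug groups above them, by 1.82 and 1.65 for Zmat3 and by 1.64 and 1.54 for Cgref1 in OXP and STS+OXP (highest adjusted p 4.32e-08, Cgref1 in STS+OXP). Plk2, a polo-like kinase induced by stress, read 8.21, 8.32 and 7.98 in STS, 9.86, 10.1 and 9.89 in OXP, 9.94, 9.97 and 10.15 in STS+OXP, and 8.97, 8.97 and 9.09 in CTR cells. Its order was the same, STS lowest and the overlapping drug groups highest, with differences of 0.94 in OXP and 1.01 in STS+OXP (adjusted p = 5.22e-06 and 2.65e-06).

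**Figure D2:**
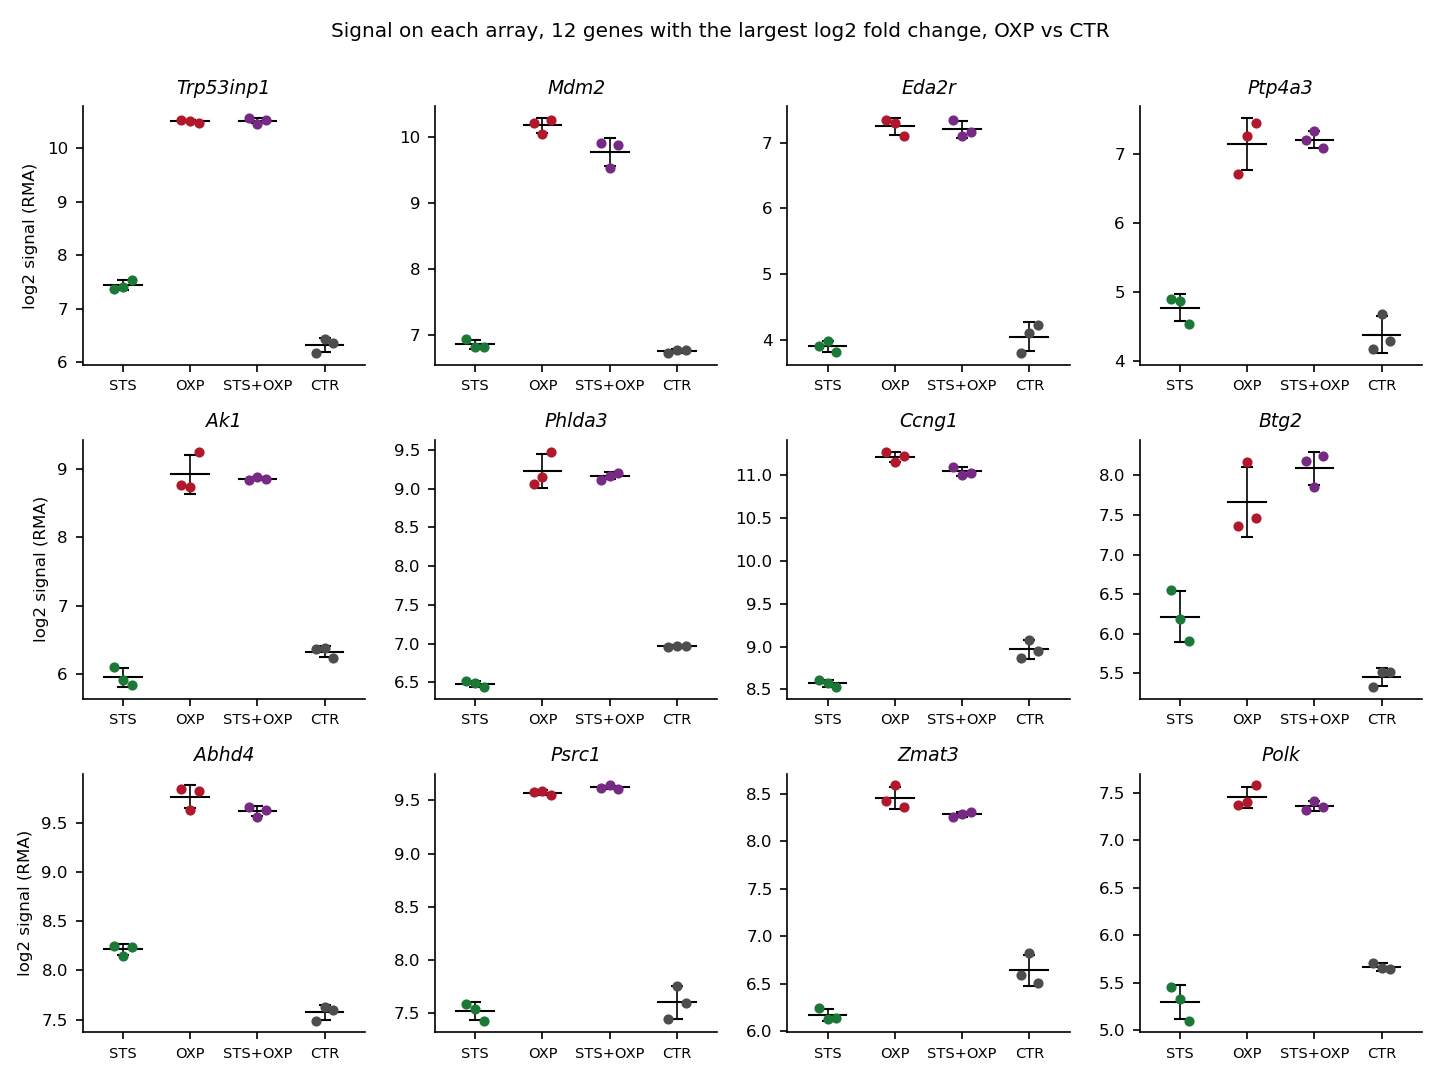
Log2 signal (vertical axis, a separate range in each panel) on each of the 3 arrays of STS, OXP, STS+OXP and CTR for the 12 genes with the largest OXP difference among those that rose in both groups. Bars give the mean and SD. In each panel the OXP and STS+OXP arrays lie above the STS and CTR arrays, and STS was called higher than CTR in Trp53inp1, Btg2 and Abhd4 and lower in Phlda3, Ccng1, Zmat3 and Polk.

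Of 9 genes of cell death and survival, 7 rose in OXP and in STS+OXP cells. Eda2r, a receptor of the tumour necrosis factor family, read 3.91, 3.98 and 3.82 in STS, 7.34, 7.3 and 7.1 in OXP, 7.34, 7.1 and 7.16 in STS+OXP, and 3.8, 4.11 and 4.23 in CTR cells. It was near the background level without the drug and 9.17-fold higher in OXP and 8.88-fold higher in STS+OXP (adjusted p = 2.11e-10 and 2.68e-10). Phlda3, which blocks the membrane binding of Akt, gave 6.51, 6.49 and 6.44 in STS, 9.06, 9.15 and 9.48 in OXP, 9.12, 9.17 and 9.21 in STS+OXP, and 6.95, 6.97 and 6.97 in CTR cells. STS lay below CTR, and the drug groups overlapped each other at 2.26 and 2.2 above CTR (adjusted p = 8.72e-10 and 1.12e-09). The endoplasmic reticulum protein gene Ei24 gave 7.48, 7.29 and 7.41 in STS, 8.26, 8.41 and 8.35 in OXP, 8.28, 8.26 and 8.29 in STS+OXP, and 7.16, 7.26 and 7.29 in CTR cells. The nuclease gene Aen gave 7.15, 7.1 and 7.07 in STS, 8.34, 8.51 and 8.62 in OXP, 8.43, 8.5 and 8.43 in STS+OXP, and 7.49, 7.61 and 7.43 in CTR cells. Both rose by about as much in each drug group, Ei24 by 1.1 and 1.04 and Aen by 0.98 and 0.95 in OXP and STS+OXP (highest adjusted p 6.9e-07, Aen in STS+OXP). Pidd1, the scaffold of a caspase-activating complex, rose by 0.93 and 1.07 (adjusted p = 0.000945 and 0.000294), with 4.35 on OXP replicate 1 beside 5.03 and 5.33 on the other OXP arrays. Trp53i11 and Ninj1, which ruptures the membrane of dying cells, rose by 0.3 to 0.51 in the drug groups. Triap1 read 5.06 ± 0.109 in OXP and 4.76 ± 0.207 in CTR cells (SD, n = 3 each; difference 0.29, adjusted p = 0.0716, limma), and Perp, a desmosome protein linked to apoptosis, was at background.

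The translesion polymerases, which copy past damaged bases, went opposite ways. Polk read 5.45, 5.33 and 5.1 in STS, 7.37, 7.41 and 7.58 in OXP, 7.32, 7.42 and 7.35 in STS+OXP, and 5.71, 5.65 and 5.64 in CTR cells. STS was lowest, and the overlapping drug groups stood 1.79 and 1.7 above CTR (adjusted p = 4.96e-09 and 7.82e-09). Polh, whose enzyme bypasses platinum crosslinks, read 6.43, 6.31 and 6.39 in STS, 5.65, 5.3 and 5.55 in OXP, 5.3, 5.36 and 5.13 in STS+OXP, and 5.91, 6.24 and 6.01 in CTR cells. Both drug groups lay below CTR and CTR below STS, and Polh fell by 0.55 in OXP and by 0.79 in STS+OXP cells (adjusted p = 0.000993 and 4.69e-05). Its probe set is of a class that can bind other transcripts, and its 2 specific probe sets gave −0.24 and −0.54 in OXP and −0.12 and −0.39 in STS+OXP. Rrm2b, the p53-inducible subunit of ribonucleotide reductase, read 5.83, 5.58 and 5.5 in STS, 6.25, 6.33 and 6.22 in OXP, 6.22, 6.07 and 6.15 in STS+OXP, and 6.06, 5.87 and 5.77 in CTR cells. Its OXP difference was 0.37 (adjusted p = 0.00975, and 0.0535 without CTR replicate 3) and its STS+OXP difference 0.25 (adjusted p = 0.0735).

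In the group of metabolism and stress genes 4 of 6 rose in both drug groups. Ak1, which balances adenine nucleotides, read 6.11, 5.91 and 5.84 in STS, 8.77, 8.73 and 9.25 in OXP, 8.84, 8.88 and 8.85 in STS+OXP, and 6.37, 6.38 and 6.23 in CTR cells. It was 6.03-fold higher in OXP and 5.79-fold higher in STS+OXP than in CTR (adjusted p = 2.41e-09 and 3.01e-09), while its second probe set was at background in all 4 groups. Abhd4, a lysophospholipase, read 8.25, 8.15 and 8.24 in STS, 9.84, 9.63 and 9.82 in OXP, 9.66, 9.56 and 9.63 in STS+OXP, and 7.49, 7.63 and 7.6 in CTR cells. The drug groups overlapped above STS, and STS lay above CTR, with drug differences of 2.19 and 2.04 (adjusted p = 2.11e-10 and 4.12e-10). The thiamine transporter gene Slc19a2 read 7.71, 7.64 and 7.72 in STS, 9.24, 9.05 and 9.16 in OXP, 8.99, 9.02 and 8.99 in STS+OXP, and 7.8, 7.9 and 7.9 in CTR cells. Its drug groups lay above all STS and CTR arrays, by 1.28 and 1.13 over CTR (adjusted p = 8.96e-09 and 2.93e-08). Sesn1, an inhibitor of the growth kinase mTORC1, read 6.34, 6.46 and 6.54 in STS, 6.28, 6.26 and 6.23 in OXP, 6.28, 6.19 and 6.15 in STS+OXP, and 5.88, 5.65 and 5.8 in CTR cells. It was the one gene of these 4 that was highest in STS, above both drug groups, which were 0.48 and 0.43 above CTR (adjusted p = 0.00028 and 0.000722). Tigar, which restrains glycolysis, averaged 4.2 ± 0.0702 in STS, 4.27 ± 0.0192 in OXP, 4.36 ± 0.161 in STS+OXP and 4.42 ± 0.261 in CTR cells (SD, n = 3 each), and no difference from CTR passed the test. Steap3, a reductase of endosomal iron, was at background.

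The 5 measured genes of signalling and the cell surface all rose in both drug groups. Ptp4a3, a membrane-bound phosphatase, read 4.9, 4.87 and 4.54 in STS, 6.71, 7.26 and 7.44 in OXP, 7.19, 7.33 and 7.08 in STS+OXP, and 4.17, 4.68 and 4.29 in CTR cells. Its drug groups overlapped, 6.76-fold and 7.07-fold above CTR (adjusted p = 4.32e-08 in OXP and 3.48e-08 in STS+OXP), and STS overlapped CTR. The second probe set of Ptp4a3 was at background in all 4 groups. The small GTPase gene Rap2b read 6.12, 6.09 and 6.32 in STS, 8.28, 7.71 and 8.01 in OXP, 7.82, 8.03 and 7.65 in STS+OXP, and 6.34, 6.44 and 6.46 in CTR cells. Tm7sf3, a multi-span membrane protein, read 6.69, 6.58 and 6.77 in STS, 7.6, 7.6 and 7.63 in OXP, 7.53, 7.36 and 7.41 in STS+OXP, and 6.28, 6.65 and 6.55 in CTR cells. The ephrin receptor gene Epha2 read 7.18, 7.13 and 7.13 in STS, 7.51, 7.65 and 7.65 in OXP, 7.58, 7.86 and 7.76 in STS+OXP, and 7.07, 7.26 and 7.26 in CTR cells. In these 3 genes both drug groups lay above all CTR and STS arrays, by 1.59 and 1.42 (Rap2b), 1.12 and 0.95 (Tm7sf3) and 0.4 and 0.54 (Epha2) over CTR, with a highest adjusted p of 0.00203 (Epha2 in OXP). Def6 rose by 0.96 and 1.23 (adjusted p = 0.00225 and 0.000336) and read 7.09 on OXP replicate 1 but 8.01 and 7.88 on the other OXP arrays. Plk3, Pidd1, Def6 and Ptp4a3 were the 4 pathway genes (10.3%) that differed by more than 0.5 between OXP replicate 1 and the mean of the other OXP arrays, lower there in each case, and 7.21% of all genes differed by as much. Without OXP replicate 1 the OXP differences of Pidd1, Def6 and Ptp4a3 were 1.21, 1.25 and 2.97.

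Within the p53 family and its neighbours no gene rose strongly. Wrap53, a telomerase and Cajal body protein whose gene lies beside Trp53, read 4.0, 4.53 and 4.34 in STS, 4.08, 4.06 and 4.29 in OXP, 3.9, 3.69 and 3.97 in STS+OXP, and 4.47, 4.66 and 4.31 in CTR cells. STS+OXP lay below the other 3 groups, and Wrap53 fell by 0.63 in STS+OXP against CTR cells (adjusted p = 0.00218), while the OXP difference was −0.34 (adjusted p = 0.0715). Trp73, the p73 gene, read 3.17, 3.38 and 3.45 in STS, 3.52, 3.59 and 3.52 in OXP, 3.66, 3.66 and 3.6 in STS+OXP, and 3.47, 3.27 and 3.22 in CTR cells. Its STS+OXP difference of 0.32 passed the test (adjusted p = 0.0108, and 0.0564 without CTR replicate 3), but every group was at background. Trp63, the p63 gene, was also at background, and none of its differences passed. Leaving out each of the 12 arrays in turn kept 28 of the 29 calls in OXP and 28 of the 29 in STS+OXP, Rrm2b and Trp73 being the exceptions named above.

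Starvation medium alone moved fewer of the pathway genes, and in both directions. In STS against CTR cells 5 of 39 were higher and 8 lower, where 16.5% of all genes were called, 9.75% higher and 6.74% lower. Among genes above the median signal, tested alone, 32.8% were called in either direction. The median over the 39 genes was −0.0845 beside −0.0336 over all genes. The genes that rose were Trp53inp1 (1.12 ± 0.0788, SE; adjusted p = 4.65e-07), Btg2 (0.76, adjusted p = 0.0169), Sesn1 (0.67, adjusted p = 5.65e-05), Abhd4 (0.64, adjusted p = 6.35e-05) and Ppm1d (0.57, adjusted p = 0.00631), and all 5 also rose in both drug groups. The genes that fell were Plk2 (−0.84 ± 0.099, SE; adjusted p = 5.37e-05), Cgref1 (−0.49), Phlda3 (−0.48), Zmat3 (−0.47), Ccng1 (−0.4), Aen (−0.4), Jmy (−0.4) and Polk (−0.37), with adjusted p of at most 0.0161 (Jmy). Of these 8, 7 rose in both drug groups, by 0.94 to 2.26 in OXP, the exception being Jmy. Jmy, a cofactor of p53 and nucleator of actin, read 6.97, 6.6 and 6.73 in STS, 7.52, 7.35 and 7.19 in OXP, 7.3, 7.39 and 7.35 in STS+OXP, and 7.12, 7.28 and 7.11 in CTR cells. Its STS arrays lay below all others, and neither drug group differed from CTR past the threshold. Sesn1 and Ccng1 moved further on their dimmer probe sets, Sesn1 by 1.56 and 1.66 and Ccng1 by −0.82 and −0.69, while the second set of Mdm2 gave −0.32 against 0.1 on the brighter one. The second set of Polk, dim but not at background, gave 0 in STS cells, 0.56 in OXP cells and 0.37 in STS+OXP cells, and that of Ppm1d gave 0.29 in STS cells. The calls of 3 of the 13 genes ended when 1 array was left out: Btg2 without CTR replicate 1 or STS replicate 1 (adjusted p = 0.0745 and 0.0886), Jmy without CTR replicate 2, STS replicate 2 or STS replicate 3 (0.0644, 0.0814 and 0.0637) and Polk without STS replicate 3 (0.0609).

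Set against starved cells in place of CTR, oxaliplatin gave much the same picture. In STS+OXP against STS cells 26 of 39 genes were higher and 3 lower, where 22% of all genes were called, 10.8% higher and 11.2% lower. Among genes above the median signal, tested alone, 42.4% were called in either direction. The median over the 39 genes was 0.862 beside 0.0367 over all genes. The 6 growth arrest genes rose by 1.85 (Plk2) to 2.48 (Ccng1). The 7 genes that fell in STS and rose with the drug were higher by 1.35 (Aen) to 2.69 (Phlda3) in STS+OXP than in STS cells. They were picked by those differences from CTR on the same arrays, so the direction here was fixed by the choice. Eda2r (3.3), Trp53inp1 (3.08), Mdm2 (2.92) and Ak1 (2.9) had the largest differences. Jmy (0.58, adjusted p = 0.000955) and Rrm2b (0.51, adjusted p = 0.00153) were called here and not in STS+OXP against CTR. The genes that fell were Polh (−1.11, adjusted p = 3.89e-06), Wrap53 (−0.44, adjusted p = 0.0309) and Sesn1 (−0.24, adjusted p = 0.0443). The calls of 4 genes ended when single arrays were left out, with adjusted p of up to 0.148 for Wrap53 (without STS replicates 2 or 3 or STS+OXP replicates 1 or 2), 0.179 for Sesn1 (without CTR replicate 3, STS replicates 2 or 3 or STS+OXP replicates 2 or 3), 0.118 for Ppm1d (without any 1 of the 6 arrays compared; 0.4 and adjusted p = 0.0329 with all) and 0.103 for Trp73 (without STS replicate 1 or STS+OXP replicates 1 or 2).

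Between the 2 groups given the drug, no pathway gene passed the test. In STS+OXP against OXP cells 0 of 39 were called in limma, where 2 of 17097 genes (0.0117%, and 0.00585% in each direction) were, and 4 had an unadjusted p under 0.05, where 12.6% of all genes had. Mdm2 was nearest to the threshold, at −0.4 ± 0.0984 (SE; adjusted p = 0.257), followed by Ccng1 (−0.16, adjusted p = 0.37) and Polh (−0.24, adjusted p = 0.374). The fourth was Btg2, named after its value was seen (0.43, adjusted p = 0.393). For Mdm2 and Ccng1 the 3 STS+OXP arrays lay below the 3 OXP arrays. This was not particular to them. Slc19a2, Tm7sf3, Zmat3, Wrap53 and Triap1 did the same, and Trp73 and Psrc1 separated the other way. The share of all genes that separate so was not counted. The 95% intervals of the 39 differences reached from −0.61 (Mdm2) to 0.86 (Btg2 and Plk3), and for 33 genes they lay within 0.5 on either side of 0. The count rested on OXP replicate 2. Without it 1 gene was higher, Btg2 (0.69, adjusted p = 0.0213), and 1 lower, Mdm2 (−0.47, adjusted p = 0.0172), where 1166 of all genes (6.82%) were called. That fit kept OXP replicate 1, which stood apart in transcript integrity. Without OXP replicate 1 in its place, Btg2 (0.28, adjusted p = 0.695, limma) and Mdm2 (−0.38, adjusted p = 0.5) were not called. With OXP replicate 3 alone the differences were 0.64 for Btg2 and −0.49 for Mdm2.

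Each of the 13 genes called in STS against CTR had a smaller difference in size between STS+OXP and OXP. These genes were picked by their difference without the drug, so a smaller one with it is partly built into the choice. Over all genes, 2819 were called in STS against CTR and 2 in STS+OXP against OXP. For 5 of the 13 genes the change in the difference passed the test. The interaction, the STS+OXP minus OXP difference less the STS minus CTR difference, was called in 7 of 39 genes, 1 positive and 6 negative, where 8.29% of all genes were called, 2.53% positive and 5.76% negative. Among genes above the median signal, tested alone, 17.1% were called in either direction. Of the 7 genes, 5 were among those called in STS against CTR. Trp53inp1 differed by 0.02 between STS+OXP and OXP but by 1.12 between STS and CTR, an interaction of −1.11 ± 0.111 (SE; adjusted p = 3.54e-05). Plk2 differed by 0.07 with the drug and by −0.84 without it, and had the positive interaction (0.91 ± 0.14, adjusted p = 0.00111). Abhd4 (−0.78, adjusted p = 0.000475), Sesn1 (−0.72, adjusted p = 0.0012) and Ppm1d (−0.77, adjusted p = 0.0163) rose with starvation medium alone and differed by −0.14, −0.05 and −0.2 between STS+OXP and OXP. For Abhd4 the second probe set, which was not used in the fit, gave 0.39 in STS against CTR and 0.32 in STS+OXP against OXP cells. The second set of Mdm2 gave −0.32 and −0.44, and that of Ppm1d 0.29 and −0.2. The dimmer sets of Sesn1 gave 1.56 and 1.66 in STS against CTR, and −0.2 and −0.18 in STS+OXP against OXP cells. Polh (−0.56, adjusted p = 0.0356) and Mdm2 (−0.5, adjusted p = 0.0437) were nearest to the threshold, and each lost the call on leaving out 9 of the 12 arrays in turn, with adjusted p of up to 0.0996 for Polh and 0.11 for Mdm2. Among the other 8 genes moved by starvation medium, Jmy differed by −0.4 without the drug and by −0.01 with it, and Btg2 by 0.76 and 0.43, and their interactions of 0.4 and −0.33 did not pass (adjusted p = 0.129 and 0.549).

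**Figure D3:**
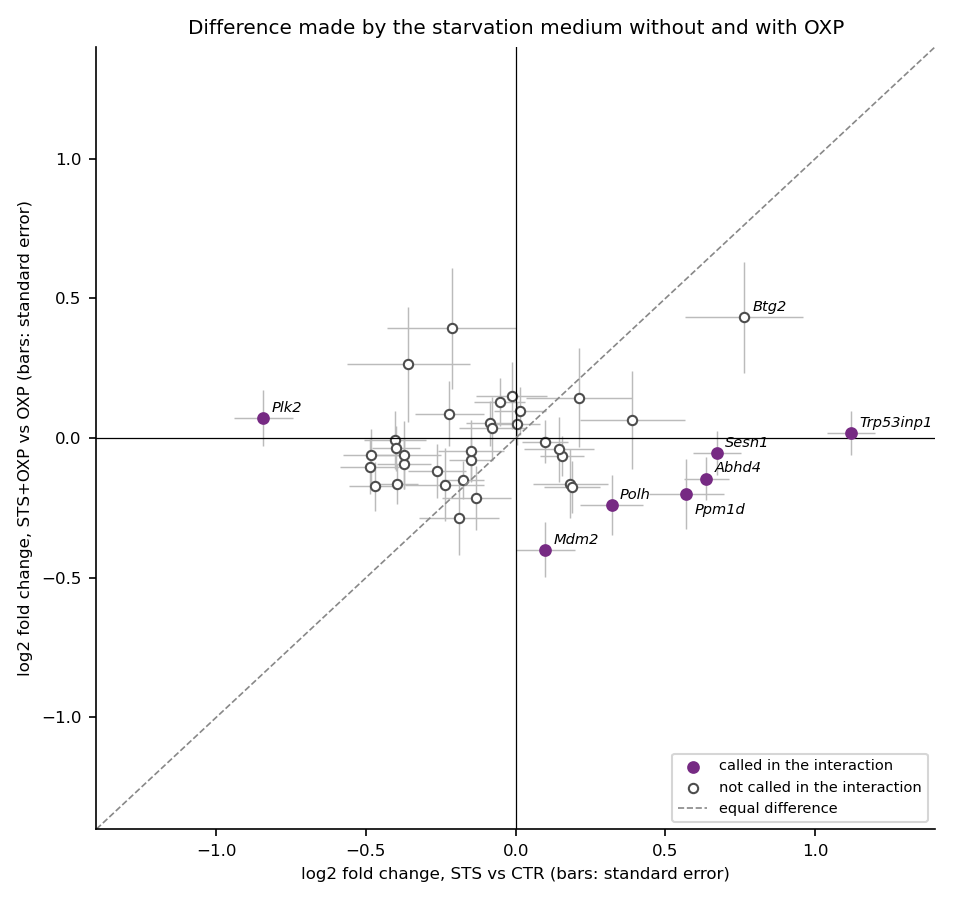
The log2 fold change of the starvation medium without the drug (STS vs CTR, horizontal axis) against that with the drug (STS+OXP vs OXP, vertical axis) for the 39 measured genes, with standard errors. Filled points were called in the interaction. Trp53inp1 lies at 1.12 and 0.02 and Plk2 at −0.84 and 0.07, away from the dashed line of equal difference.

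**Figure D4:**
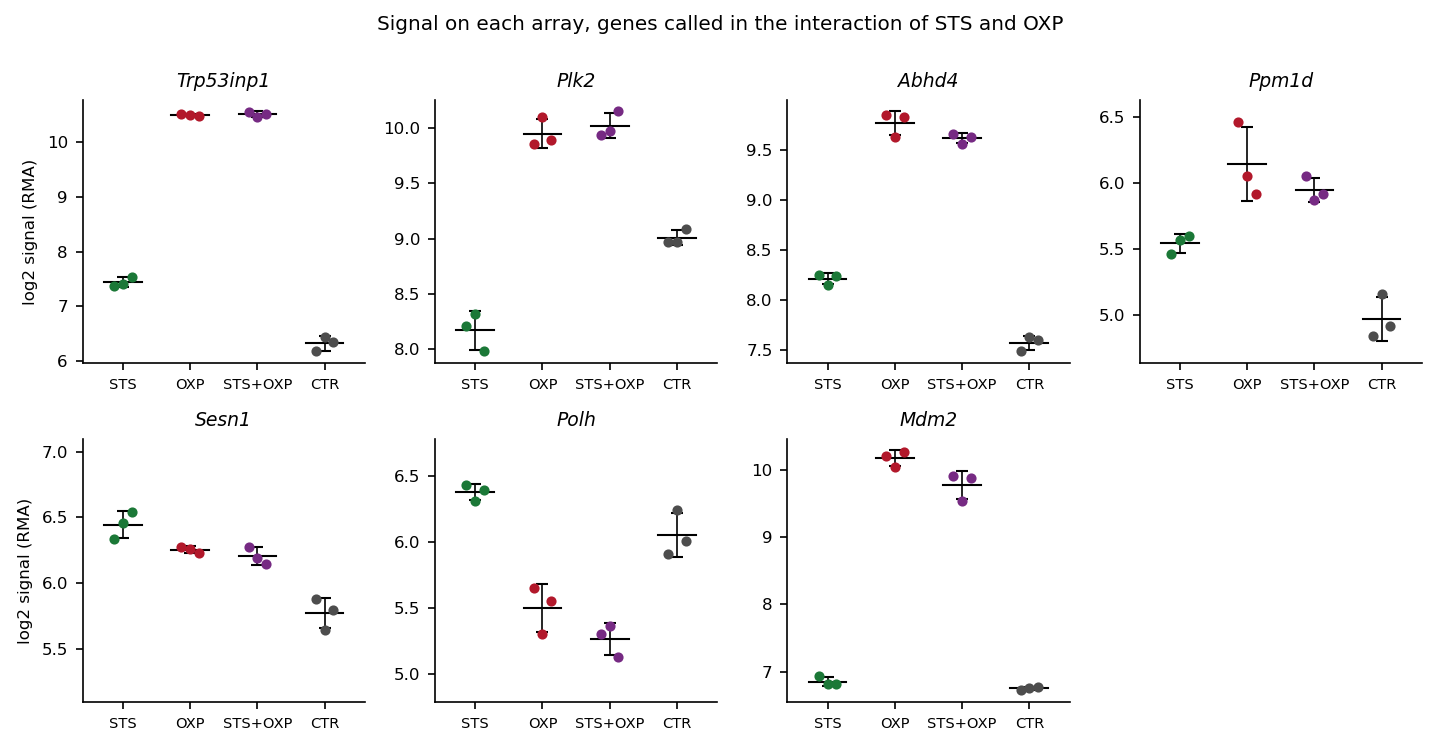
Log2 signal (vertical axis, a separate range in each panel) on each of the 3 arrays of STS, OXP, STS+OXP and CTR for the 7 genes called in the interaction. Bars give the mean and SD. The STS arrays do not overlap the CTR arrays in any panel, and STS was called against CTR in Trp53inp1, Plk2, Abhd4, Ppm1d and Sesn1. STS+OXP and OXP overlap in every panel but that of Mdm2.

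Genes of the same pathway that are not among the 42 were counted from lists set up by role, beside which 9.75% of all genes rose and 6.74% fell in STS, 17.5% and 13.9% in OXP, and 16.4% and 14.2% in STS+OXP against CTR. Of 25 other p53 targets 23 were measured, and 4 rose and 5 fell in STS, 10 rose and 1 fell in OXP, and 11 rose and 1 fell in STS+OXP against CTR cells. Cdkn1a, the cell cycle inhibitor p21, rose by 2.95 in OXP and 2.87 in STS+OXP (adjusted p = 8.83e-12 and 1.25e-11), Fas, a death receptor, by 2.71 and 1.81, and Ercc5, a nuclease of excision repair, by 2.48 and 2.25. Gadd45a, a stress gene of the same list, was lower in all 3 groups, by a log2 fold change of −1.91 in STS cells, −2.61 in OXP cells and −1.94 in STS+OXP against CTR cells (adjusted p = 0.000634, 1.3e-05 and 0.000184). Its OXP arrays were spread widely, at 5.48, 6.68 and 5.01. Of 21 damage sensors and kinases 20 were measured, and 2 rose and 13 fell in OXP, 1 rose and 11 fell in STS+OXP, and 4 rose and 1 fell in STS. Among those that fell in both drug groups were the kinases Chek1 (−2.1 in OXP and −2.25 in STS+OXP) and Atr (−1.79 and −2.06), the nuclease Mre11a (−1.46 and −1.85) and the checkpoint adaptor Clspn (−1.4 and −1.62). The mean of Chek1 was at background in STS+OXP (3.69) and near it in OXP (3.84), so the size of its fall is uncertain. Of 22 other regulators of p53 protein 17 were measured, and 6 rose and 2 fell in OXP, 6 rose and 3 fell in STS+OXP, and 3 rose and 1 fell in STS. Among them the acetyltransferase gene Kat2b rose by 1.1 in STS cells, by 1.1 in OXP cells and by 1.14 in STS+OXP cells, Daxx by 1.11, 0.97 and 0.93, and the methyltransferase gene Setd7 by 0.44, 0.85 and 0.77, while Kmt5a, another methyltransferase gene, fell in both drug groups (−1.26 in OXP and −1.06 in STS+OXP). Kmt5a read 6.28 on OXP replicate 1, which stood apart in transcript integrity, and 7.23 and 6.99 on the other OXP arrays. Of 15 cell cycle genes known to be repressed downstream of p53 through p21 and the DREAM complex 13 were measured, and all 13 fell in OXP and in STS+OXP, with medians of −2.23 and −2.25, while none was called in STS. The mitotic kinase gene Aurkb had differences of −2.97 in OXP and −3.27 in STS+OXP, the cyclin gene Ccna2 −2.94 and −3.24, the survivin gene Birc5 −2.49 and −2.82, and the replicative helicase gene Mcm5 −2.48 and −2.67. Chek1 stands in this list and in that of the sensors.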

How the data were processed

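Total RNA of CT26 cells was hybridised to 3′ expression arrays, 1 colour and 1 sample an array. The deposited values are log2 signals that the authors made by RMA (background correction, quantile normalization and probe set summary) in R 3.02, per the submitters' processing notes. They were used as deposited. Of 45141 probe sets, 28898 carried 1 gene symbol, 551 several and 15588 none; symbols came from the platform annotation. The 4 group means of all 12 arrays were fitted in limma 3.58.1 (R 4.3.3) with empirical Bayes, with 6 contrasts and Benjamini-Hochberg adjustment over 17097 genes. Array signals carry no read depth, and the 3 arrays a group limit the precision. The fit was tested on simulated data. The members, lists and tests were chosen with earlier results of these data known. Arrays were named by group and replicate number from the labels. Signals on every array were planned for Mdm2, for the genes of each role called in a drug group against CTR (all if up to 4, otherwise the 4 with the smallest adjusted p in STS+OXP against CTR), for genes called in STS, in STS+OXP against OXP or in the interaction, and by p for the first 3 genes in STS+OXP against OXP. Outside the 42, up to 4 called genes of a list with the largest OXP difference were named. Promoters were searched on both strands. Alternatives were other scalings, probe set rules, filters and tests, a replicate block and leaving out arrays.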

Additional observations from a re-analysis of the deposited data

Results flagged for a closer look

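In 7 pathway genes the interaction term in limma was called on the probe set used in the fit. The value, STS+OXP minus OXP less STS minus CTR on the log2 scale, was −1.11 for Trp53inp1 (adjusted p = 3.54e-05), −0.78 for Abhd4 (0.000475), 0.91 for Plk2 (0.00111), −0.72 for Sesn1 (0.0012), −0.77 for Ppm1d (0.0163), −0.56 for Polh (0.0356) and −0.5 for Mdm2 (0.0437). Polh and Mdm2 each lost the call on leaving out 9 of the 12 arrays in turn, and Polh changed sign with specific probe sets only. The second probe sets of Abhd4 and Mdm2 gave similar differences without and with oxaliplatin, while the dimmer sets of Ppm1d and Sesn1 did not.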

How the results depend on the processing

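Of the alternatives tried for the counts of pathway genes, these moved a count by more than 1.5 times. The methods' unpaired test with unequal variances, which takes each gene's spread alone, gave 3 higher and 2 lower in STS, 15 higher and 0 lower in OXP, 1 lower in STS+OXP against CTR and 1 lower in STS+OXP against STS; of all genes it called 4.18% in STS, 6.05% in OXP, 18.5% in STS+OXP against CTR and 12.7% against STS. Probe sets of the specific class only, which measured 35 of the genes, gave 0 lower in OXP, 1 lower in STS+OXP against CTR, 1 lower against STS, and 3 higher and 3 lower in the interaction. The average of all probe sets gave 3 higher and 2 lower in the interaction, cyclic loess 3 higher, and leaving out OXP replicates 1 and 2 together 2 higher. Leaving out each array in turn gave 4 to 7 higher and 6 to 10 lower in STS, 27 to 30 and 1 to 2 in OXP, 26 to 28 and 2 to 3 in STS+OXP against CTR, 24 to 28 and 1 to 3 against STS, 0 to 1 and 0 to 1 against OXP, and 1 to 4 and 4 to 6 in the interaction. Specific probe sets turned the sign of Mdm4 in STS (−0.299, adjusted p = 0.0479) and in OXP (−0.208) and of Polh in the interaction (0.0353), and the cause was not tested. Same-numbered arrays did not deviate together (correlations of −0.199 to 0.102 over 18 pairs), so the numbers were not taken to pair them; with the number as a replicate block the counts were 5 higher and 8 lower in STS, 28 and 1 in OXP, 28 and 2 in STS+OXP, 26 and 2 against STS, 0 and 0 against OXP and 1 and 5 in the interaction.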
